A study of Mus musculus with 6 samples.

Results

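The MOS-MAPK cascade of the mouse oocyte was described here at the RNA level through 7 genes, Mos, Map2k1, Map2k2, Mapk3, Rps6ka1, Rps6ka2 and Rps6ka3. They were taken by symbol from the 24255 rows of the expression table, and all 7 have a row. Of the 7, 4 (Mos, Map2k1, Mapk3 and Rps6ka3) reached 1 FPKM in at least 1 library and entered the test between genotypes, in which 6398 genes took part. FPKM is the number of sequenced fragments per kilobase of transcript, scaled to the mapped fragments of the library, so that levels of different genes can be set side by side.

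MOS is a germ-cell serine/threonine kinase that phosphorylates the kinases MEK1 and MEK2 (Map2k1 and Map2k2). These phosphorylate the ERK kinases, of which ERK1 is encoded by Mapk3, and the ERKs phosphorylate the ribosomal S6 kinases of the RSK family (Rps6ka1, Rps6ka2 and Rps6ka3). In fully-grown oocytes Mos mRNA is stored with little translation and is translated after meiosis resumes, and the cascade is known for spindle organization and for holding the egg at metaphase II until fertilization.

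The RNA came from fully-grown oocytes (FGOs) at the germinal vesicle stage, the stage of the prophase arrest, from the ovaries of WT mice and of Lsm14b-KO mice. Lsm14b encodes an RNA-binding protein related to the storage of maternal mRNA. The KO females were homozygous for the reporter-tagged insertion allele Lsm14b tm1a(KOMP)Mbp on a C57BL/6J background, an allele carried by every tissue and not by the oocyte alone. Females of both genotypes received 5 IU of PMSG and oocytes were collected 46 h later; no age is given in the labels. Each library was made from 20 oocytes by Smart-seq2, with 3 libraries per genotype. The labels do not say whether these came from separate females, so the p-values measure the spread between libraries.

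For Lsm14b itself the WT replicates held 2.78, 3.98 and 1.72 FPKM and the KO replicates 0, 0 and 0.102 FPKM. All 13 oocyte markers were present. Of 17 cumulus and granulosa cell markers, 3 reached 1 FPKM (Fshr, Inha and Cyp19a1) and 8 were at 0 throughout (among them Amh, Foxl2 and Inhba), and the summed level of the list was 9.73 to 13.5 FPKM in WT and 6.13 to 10.2 FPKM in KO libraries. The largest contribution was that of Cyp19a1, at 11.5, 8.26 and 10.5 FPKM in WT and 5.47, 3.0 and 5.76 FPKM in KO, whereas Fshr was higher in each KO library (2.07, 1.91 and 1.82 FPKM) than in each WT library (1.68, 0.526 and 0.349 FPKM), as was Kitl (0.402, 0.548 and 0.559 against 0.097, 0.383 and 0.189 FPKM). The part of such cells in the results below was not tested. The KO libraries were not alike. Across tested genes, KO replicate 1 correlated with the WT libraries at r = 0.952 to 0.954 and with KO replicate 2 at r = 0.917, while KO replicate 2 correlated with WT at r = 0.867 to 0.890; these are correlations across genes, which are not independent replicates. Sequencing depth was inferred from the steps between low FPKM values, as FPKM holds no read totals. This inferred depth was 1.00 to 1.14 times that of WT replicate 1 in the WT libraries and 1.33, 1.95 and 2.17 times in KO replicates 1, 2 and 3. Summed FPKM was 1141320 to 1244180 in WT but 1029730, 564671 and 676656 in these KO libraries. Inferred depth and sum thus moved with genotype, and their part in the results was not tested. Results on TPM (FPKM rescaled to the same total in each library) are given for the tested members and for the direction of all calls. Among the called list genes they are given only for those that lost their call on TPM.

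The ends of the 4 tested mRNAs are shown because stored oocyte mRNAs, Mos among them, are regulated through poly(A) tails added at these ends. The last 30 nt of the annotated transcript (GENCODE vM21, GRCm38) are given 5′ to 3′ on the strand of the gene, with the cleavage and polyadenylation signal AATAAA in capitals where these letters occurred.
Mos, chr4:3870657-3870686, minus strand: ttttaggaAATAAAgttaccacgaacttca
Map2k1, chr9:64185770-64185799, minus strand: tcaagttaaAATAAAagggacaagagattt
Mapk3, chr7:126765790-126765819, plus strand: atataaatatagagatgtgtatatggatga
Rps6ka3, chrX:159368215-159368244, plus strand: aatttatatAATAAAgtttcaagtaaagca
Mos, Map2k1 and Rps6ka3 held the hexamer in this window, as did 55.9% of the 5765 tested genes with a 3′ untranslated region of at least 30 nt, and Mapk3 did not. The 3′ untranslated regions measured 126 nt for Mos, 915 nt for Map2k1, 612 nt for Mapk3 and 4759 nt for Rps6ka3. On the gene's strand, 2 forms of the cytoplasmic polyadenylation element, TTTTAT and TTTTAAT, were searched. Neither form occurred in the untranslated regions of Mos and Mapk3, while Map2k1 held 2 and Rps6ka3 held 7, with 0 of these in the last 100 nt. Among 5453 tested genes with at least 100 nt, 20.5% held such a motif in the last 100 nt and 63.8% held one anywhere in the region. Other forms of the element were not searched, so Mos and Mapk3 may hold forms not counted here. These are matches of letters in 1 annotated transcript per gene and say nothing of binding.

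In WT oocytes the cascade was steeply graded at the RNA level. Mos stood at 235.8 ± 45.8 FPKM (SD, n = 3), rank 437 of the 6398 tested genes by WT mean, and Map2k1 at 10.1 ± 1.29 FPKM, rank 1879. Mapk3 with 2.81 ± 1.08 FPKM and Rps6ka3 with 2.47 ± 0.777 FPKM came next, near the middle of the tested genes, and the libraries of these genes overlapped. Map2k2 and Rps6ka1 stayed at or below 0.461 FPKM in each WT library, and Rps6ka2 was listed at 0. In KO oocytes Mos was again above the other members in each library. The ranges of Map2k1 and Mapk3 overlapped in KO, but Map2k1 was above Mapk3 within each library of both genotypes. The KO values of Rps6ka3, 0.548 to 1.69 FPKM, lay below those of Mapk3, 4.13 to 16.7 FPKM, which was not so in WT.

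**Figure D1:**
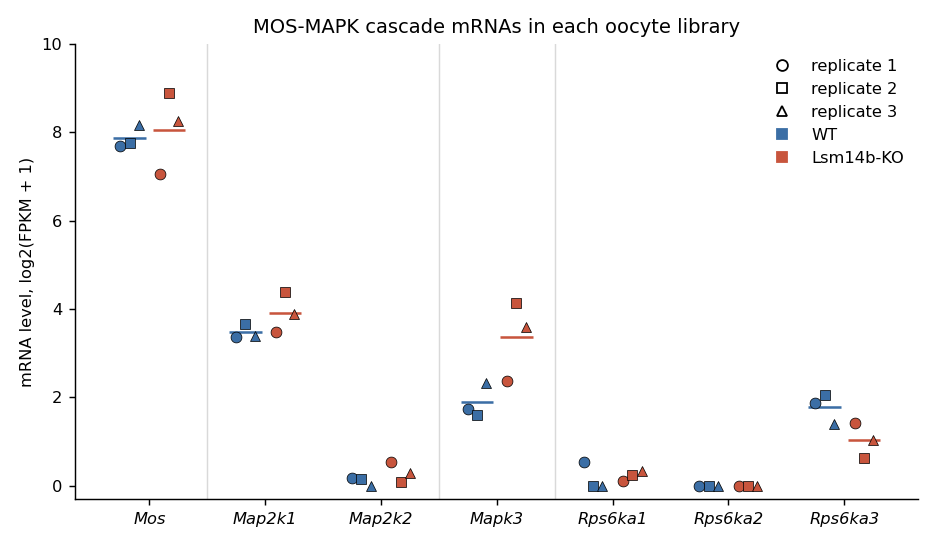
Level of the 7 cascade genes, as log2(FPKM + 1), in each of the 3 WT and 3 Lsm14b-KO libraries, with 1 point per library and a horizontal line at the mean on the plotted scale for genes above 0 in all 6 libraries. Mos lay between 131.2 and 472.0 FPKM in each library, Mapk3 was higher in each KO library than in each WT library, and Rps6ka2 was listed at 0 in all 6.

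None of the 4 tested members passed an adjusted p of 0.05 between genotypes (limma, Benjamini-Hochberg over 6398 genes), where 1383 genes, 21.6% of those tested, did, 408 higher (6.38%) and 975 lower (15.2%) in KO. Of these calls 29.5% were higher in KO, and the share was 63.2% on TPM, 42.4% after quantile normalization and 45.1% after a correction for transcript length and GC content. At an unadjusted p of 0.05, 2 members (Mapk3 and Rps6ka3) and 39.4% of all tested genes passed. The groups of FPKM did not overlap for 1 member, Mapk3, against 45.0% of tested genes, 19.1% with KO above and 26.0% with KO below WT. The members' median log2 fold change was 0.32, against -0.075 over all tested genes, where fold changes are KO over WT on the log2(FPKM + 1) scale, which understates those of low genes. As each library pools 20 oocytes, fewer contributing cells and less RNA per cell cannot be told apart. KO replicate 1 decided several of these values: without it, 2898 genes (45.3%) and 2 members, Mapk3 and Rps6ka3, passed, whereas without KO replicate 3, 315 genes (4.92%) and 0 members did.

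**Figure D2:**
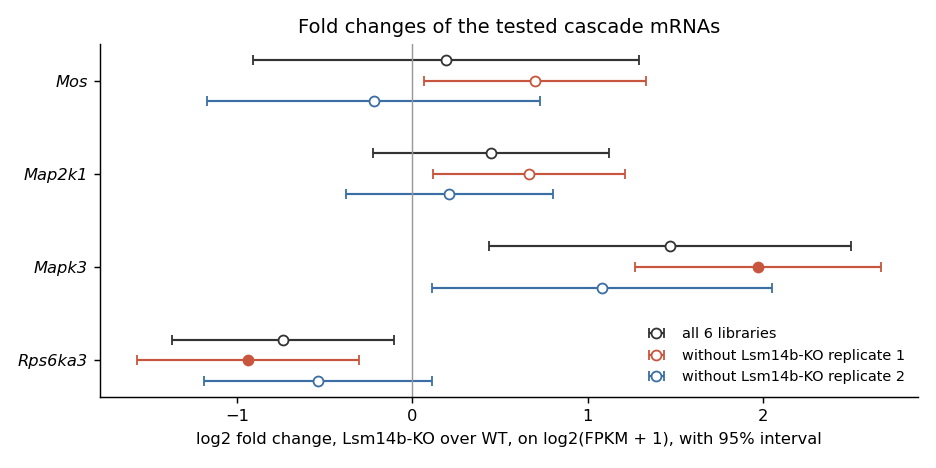
Log2 fold change of FPKM + 1 (KO over WT) for the 4 tested members, with all 6 libraries, without KO replicate 1 and without KO replicate 2 (colours), bars for the 95% confidence interval from limma, and filled points where the adjusted p was below 0.05. With all 6 libraries the interval of Mos ran from -0.91 to 1.29 around 0.19, that of Mapk3 from 0.44 to 2.5 around 1.47, and that of Rps6ka3 from -1.37 to -0.11 around -0.74.

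Mos, the germ-cell kinase at the top of the cascade, is a gene of a single exon on chr4:3870657-3872105, with no other annotated gene overlapping it. It was measured at 205.0, 214.1 and 288.4 FPKM in WT and at 131.2, 472.0 and 304.4 FPKM in KO replicates 1 to 3. KO replicate 1 was below every WT library and KO replicates 2 and 3 above, so the groups overlapped, and the KO libraries spread more widely (302.5 ± 170.4 FPKM, n = 3). The log2 fold change was 0.19 (SE 0.48, 95% confidence interval -0.91 to 1.29, limma adjusted p = 0.777), an interval that includes a higher as well as a lower level in KO. Its sign depended on a single library, since without KO replicate 2 it was -0.22 (adjusted p = 0.722) and without KO replicate 1 it was 0.70 (adjusted p = 0.0688). On TPM, Mos was at 164.7, 182.7 and 252.7 in WT and at 127.4, 835.9 and 449.8 in KO, again with KO replicate 1 lowest, and the log2 fold change was 0.88 (adjusted p = 0.280), or 0.48 above the median of all genes on that scale.

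Map2k1 encodes MEK1, a kinase that MOS phosphorylates. Its values were 9.25, 11.6 and 9.53 FPKM in WT and 10.2, 19.9 and 13.8 FPKM in KO. KO replicates 2 and 3 exceeded the WT libraries and KO replicate 1 lay among them. The log2 fold change of 0.45 (SE 0.29, 95% confidence interval -0.23 to 1.12) did not pass, with a limma adjusted p of 0.277, and remained short of it without KO replicate 1 (0.66, adjusted p = 0.0518) and on TPM (1.10, adjusted p = 0.0893). The locus, chr9:64185770-64253631, is overlapped on the other strand by 3 annotated genes. One of them, Uchl4, was at 63.0 ± 3.89 FPKM in WT and 47.9 ± 19.4 FPKM in KO (n = 3 each). The overlap is one of whole gene spans, and overlap of exons was not checked. Whether the reads were counted by strand is not given in the sources used here, so reads of the 2 genes may not have been kept apart.

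Map2k2, which encodes MEK2 on chr10:81105915-81133975, was close to the limit of these libraries. It was listed at 0.119, 0.104 and 0 FPKM in WT and at 0.448, 0.0613 and 0.219 FPKM in KO. The values were whole multiples of the level worth 1 fragment, 0.119 FPKM in WT replicate 1, and corresponded to 1, 1 and 0 fragments in WT and to 5, 1 and 4 in KO, 12 in all. This amounts to 2 fragments in WT and 10 in the KO libraries, whose inferred depth was higher, and the gene was too low to be tested between genotypes. Map2k1 was 77.5 and 111 times Map2k2 in WT replicates 1 and 2 and 22.7, 325 and 62.8 times in the KO libraries, and the ratio could not be formed in WT replicate 3, where Map2k2 was listed at 0. Map2k1 was thus listed above Map2k2 in each of the 6 libraries, but the size of the ratio rests on few fragments of Map2k2 and on Map2k1 values that may include reads of Uchl4.

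Mapk3 encodes ERK1, one of the kinases that MEK activates. It was at 2.34, 2.04 and 4.04 FPKM in WT and at 4.13, 16.7 and 11.02 FPKM in KO. Each KO library exceeded each WT library, narrowly for KO replicate 1 against WT replicate 3 and clearly for KO replicates 2 and 3. The ratio of mean FPKM was 3.77 and the log2 fold change 1.47 (SE 0.45, 95% confidence interval 0.44 to 2.5), with an unadjusted p of 0.0110 and an adjusted p of 0.0506 by limma, just short of the threshold. Its call depended on the processing. It passed under 8 of 17 alternatives, among them TPM (2.07, adjusted p = 0.0470), quantile normalization (1.66, adjusted p = 0.0491) and the length and GC correction (1.58, adjusted p = 0.0312), and without KO replicate 1 (1.97, adjusted p = 0.00274). In the alternatives other than leaving out a library in which it passed, the share of all tested genes that passed was 31.6% with a filter of 5 FPKM, 20.6% on TPM, 19.9% with quantile normalization, 21.9% with median scaling, 22.7% with the length and GC correction, 19.4% with a replicate block and 21.4% with the block and that correction together. Mapk3 met the filter of 5 FPKM only through KO replicates 2 and 3, so the pass under that filter adds no support. Leaving out any of the other 5 libraries gave adjusted p values from 0.0999 to 0.166. The log2 fold change was positive under all 17, from 1.08 without KO replicate 2 to 2.07 on TPM. The scalings moved the median of all tested genes too, by 0.47 on TPM, 0.14 with quantile normalization and 0.18 with the length and GC correction. Relative to that median Mapk3 was higher by 1.54 on FPKM, 1.67 on TPM, 1.60 after quantile normalization and 1.47 after the correction. No other annotated gene overlaps Mapk3 (chr7:126759601-126765819), and no near-identical copy was found among the annotated transcripts. The study reported Mapk3 as upregulated in Lsm14b-KO oocytes by RNA-seq, which used these libraries, and by qRT-PCR, which was not examined here.

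**Figure D3:**
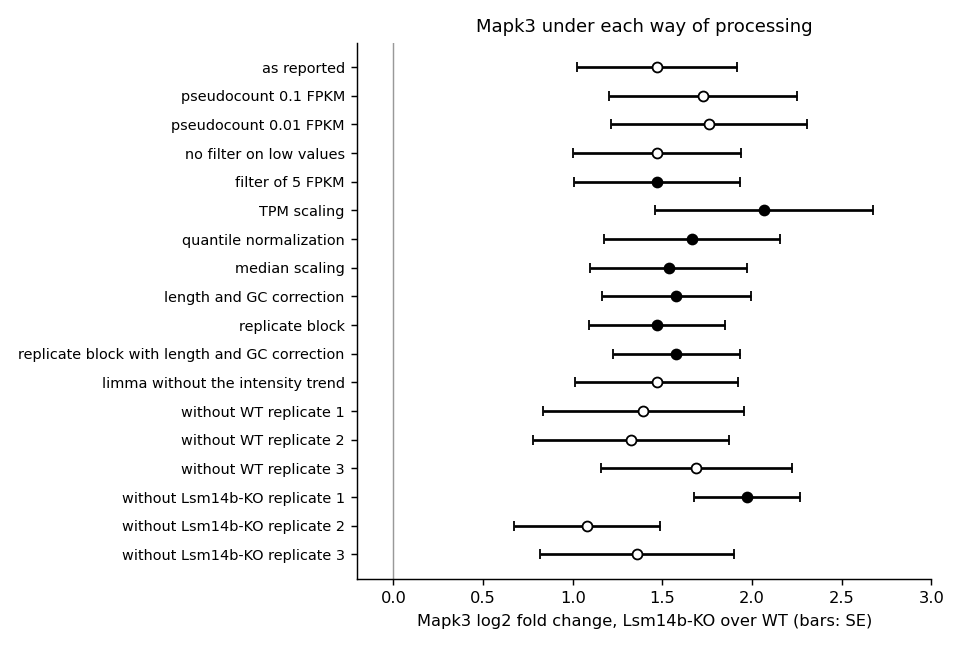
Log2 fold change of Mapk3 (KO over WT) in the main test and under each of 17 alternatives, with bars for the standard error from limma and filled points where the adjusted p was below 0.05. The fold change ranged from 1.08 to 2.07, and 8 of the 17 alternatives passed the threshold. Among these, Mapk3 met the filter of 5 FPKM in KO libraries only.

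Rps6ka3 encodes RSK2, an ERK substrate, and was the only one of the 3 RSK members to reach 1 FPKM in any library. It was at 2.63, 3.16 and 1.63 FPKM in WT and at 1.69, 0.548 and 1.05 FPKM in KO. WT replicates 1 and 2 exceeded all KO libraries, but WT replicate 3 fell just below KO replicate 1, so the groups overlapped narrowly. The log2 fold change of -0.74 (SE 0.27, 95% confidence interval -1.37 to -0.11) had an unadjusted p of 0.0275 and an adjusted p of 0.0874 by limma. It was negative under all 16 alternatives that tested it and passed under 1, without KO replicate 1 (-0.94, adjusted p = 0.0274), and it was smallest in size on TPM (-0.36, adjusted p = 0.328). On TPM the values were 2.12, 2.69 and 1.43 in WT and 1.64, 0.970 and 1.55 in KO, with 2 KO libraries above WT replicate 3. The gene lies on chrX:159210307-159368244 and has the longest annotated transcript of the 7, 7244 nt.

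Rps6ka1 and Rps6ka2, which encode RSK1 and RSK3, were at or near 0. Rps6ka1 (chr4:133847290-133887797) was listed at 0.461, 0 and 0 FPKM in WT and at 0.0693, 0.189 and 0.254 FPKM in KO. These values corresponded to 5, 0 and 0 fragments in WT and to 1, 4 and 6 in KO, and all 5 WT fragments came from 1 library. A further 3 annotated genes overlap this locus, 2 of them on the same strand. Rps6ka2 (chr17:7170115-7303315) was listed at 0 in all 6 libraries. A stretch of at least 200 nt of its 5406 nt transcript is nearly identical to transcripts of 2 other genes, Sod2 and AC166110.4. Whether this bears on the listed 0 was not tested.

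Mos, Map2k1 and Mapk3 shared an order of the KO libraries, with KO replicate 2 highest and KO replicate 1 lowest, and Rps6ka3 had the reverse order. Each order was common, being found in 26.5% and 33.4% of tested genes respectively, and the summed FPKM and the relative depth also differed between KO replicates 1 and 2. Their part in these orders was not tested.

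The genes whose profile over the 6 libraries was most like that of Mos, by the root mean square difference of log2(FPKM + 1) deviations from each gene's mean, were Rnf181 (0.1197), Ninj1 (0.1329) and Zp1 (0.1399), against a median of 0.910 over the 2559 genes compared. Zp1, a zona pellucida glycoprotein gene of the oocyte, was at 5.00, 5.29 and 8.79 FPKM in WT and 3.29, 15.3 and 10.8 FPKM in KO, with KO replicate 1 lowest as for Mos. For Mapk3 the nearest were Trim71 (0.138), Rsl24d1 (0.148) and Pla2g4c (0.159), against a median of 1.27. The genes of both sets were picked for likeness over these same libraries, so a shared order or direction follows from the choice. Trim71 was at 5.42, 4.17 and 8.0 FPKM in WT and 8.59, 25.3 and 17.4 FPKM in KO. Pla2g4c, a cytosolic phospholipase A2 gene, was at 84.5, 87.1 and 114 FPKM in WT and 150, 539 and 373 FPKM in KO, and with a log2 fold change of 1.71 it passed the test (limma adjusted p = 0.0400), a call lost without any 1 library other than KO replicate 1 (adjusted p of 0.0802 to 0.145).

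**Figure D4:**
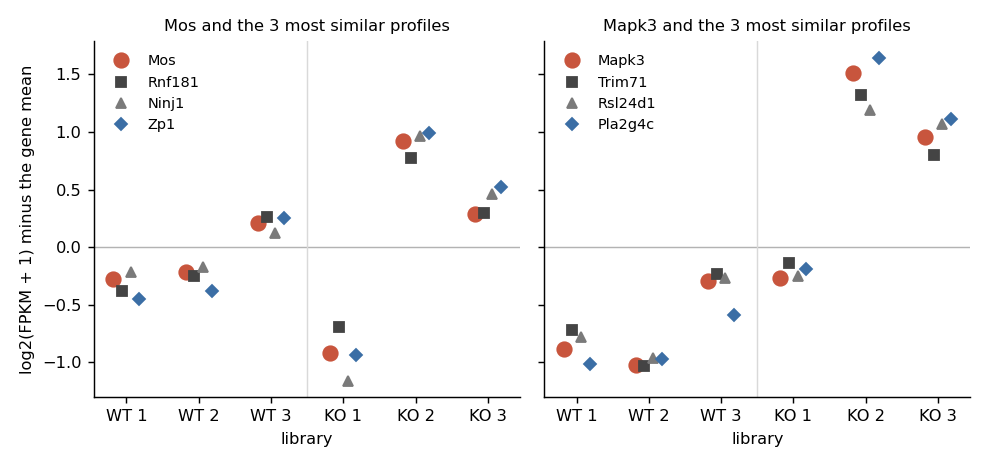
Deviation of log2(FPKM + 1) from the gene mean in each library for Mos and its 3 nearest genes (Rnf181, Ninj1, Zp1) and for Mapk3 and its 3 nearest genes (Trim71, Rsl24d1, Pla2g4c). In both panels KO replicate 2 is the highest library, and KO replicate 1 is the lowest library in the Mos panel but not in the Mapk3 panel.

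Around the cascade, 4 lists of other genes held 46 tested genes of 98 listed symbols. Of the tested genes 7 rose and 5 fell in KO oocytes, 26.1% against 21.6% of all tested genes. Their medians of log2 fold change lay between -0.03 and 0.34. Among the other ERK-family and parallel cascade kinases, 9 of 32 were tested, with a median of -0.03, and 1 changed. This was Rps6ka5, the gene of the ERK- and p38-activated kinase MSK1, which fell from 2.73, 1.91 and 2.06 FPKM in WT to 1.37, 0.685 and 0.559 FPKM in KO (log2 fold change -0.81, limma adjusted p = 0.0426). The groups did not overlap, but the call was lost on TPM (-0.44, adjusted p = 0.184) and with median scaling (adjusted p = 0.0552).

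Among scaffolds, inhibitors and phosphatases, 12 of 27 were tested, with a median of 0.34, and 4 rose and 1 fell. The largest change in size in the 4 lists was that of Spry1, a feedback inhibitor of receptor signalling to ERK. Spry1 was at 16.1, 10.0 and 12.3 FPKM in WT and at 0.1998, 0.2734 and 0.3666 FPKM in KO, with each WT library far above each KO library (log2 fold change -3.41, SE 0.22, limma adjusted p = 0.000544), and it passed under all 17 alternatives. Pebp1, the gene of the Raf kinase inhibitor protein, rose from 3.05, 4.33 and 4.52 FPKM to 10.9, 27.1 and 10.7 FPKM (1.68, adjusted p = 0.0199). Both Dusp10 (0.79, adjusted p = 0.0299) and Dusp16 (0.74, adjusted p = 0.0369) encode phosphatases that act mainly on JNK and p38, and both rose. Dusp10 went from 2.27, 1.72 and 1.80 FPKM to 4.11, 4.71 and 3.41 FPKM, and Dusp16 from 0.389, 0.512 and 0.252 FPKM to 1.563, 1.403 and 0.9863 FPKM. Spred1, an inhibitor of Ras to ERK signalling, completes the count (0.65, adjusted p = 0.0402) and was named after its values were seen. After the length and GC correction Dusp16 (adjusted p = 0.109) and Spred1 (adjusted p = 0.0579) did not pass. Dusp16 and Spred1 reached 1 FPKM in KO libraries only, and Spry1 in WT libraries only. The filter thus admitted each through the group where it was high, so the direction of these calls adds no support.

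The list drawn up for the storage and translation of Mos mRNA held 25 symbols, 2 of them for the same gene, and 24 were in the table. Whether these genes act on Mos mRNA in these oocytes was not tested. Of the list, 15 were tested between genotypes, with a median of 0.24, and 2 rose and 3 fell. Btg4, an adaptor of maternal mRNA deadenylation, fell from 4979, 4441 and 5534 FPKM in WT to 1087, 1454 and 1522 FPKM in KO (log2 fold change -1.89, limma adjusted p = 0.00474). Dazl, an RNA-binding protein gene of germ cells, fell from 134.8, 128.2 and 155.4 FPKM to 34.4, 57.2 and 50.5 FPKM (-1.56, adjusted p = 0.0131), and Zar1l, a zygote arrest family gene, from 1330, 1162 and 1349 FPKM to 477, 494 and 559 FPKM (-1.33, adjusted p = 0.0144). The groups did not overlap for any of these genes, but the calls depended on the scaling. Btg4 did not pass after quantile normalization (-1.12, adjusted p = 0.0649), Dazl did not pass on TPM (adjusted p = 0.125) or after quantile normalization (adjusted p = 0.0834), and Zar1l did not pass on TPM (adjusted p = 0.115), after quantile normalization (-0.52, adjusted p = 0.218) or after the length and GC correction (-0.73, adjusted p = 0.0655). Patl2, an oocyte mRNA-binding protein gene, rose from 0.463, 0.506 and 0.448 FPKM to 2.61, 4.21 and 2.23 FPKM (1.42, adjusted p = 0.00624). Patl2 reached 1 FPKM in KO libraries only and entered the test through them, so the direction of its call adds no support. Cpeb1, the gene of the protein that binds cytoplasmic polyadenylation elements, also rose, from 16.9, 18.1 and 22.7 FPKM to 29.99, 54.6 and 48.96 FPKM (1.14, adjusted p = 0.0380), and was named after its values were seen.

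Among meiotic substrates and partners of ERK and RSK, 10 of 14 were tested, with a median of 0.19, and 1 rose. This was Bub1, a spindle checkpoint kinase gene, at 0.616, 1.03 and 0.778 FPKM in WT and 1.48, 3.95 and 2.36 FPKM in KO (log2 fold change 0.94, limma adjusted p = 0.0451), and it did not pass after quantile normalization (adjusted p = 0.0529). The study reported Bub1, too, as upregulated by RNA-seq of these libraries and by qRT-PCR. Of the 12 called genes in the 4 lists, Spry1, Btg4 and Patl2 kept their call without any 1 library. Of these, Spry1 and Patl2 had entered the test through 1 genotype only. Pebp1, Dazl and Zar1l kept their call without KO replicate 1 or 2 and lost it without any 1 of the other 4, with adjusted p up to 0.0984, 0.0689 and 0.0833. The other 6 kept it without KO replicate 1 and lost it without any 1 of the other 5 libraries, with adjusted p up to 0.155 for Rps6ka5, 0.121 for Dusp10, 0.102 for Dusp16, 0.129 for Spred1, 0.146 for Cpeb1 and 0.152 for Bub1.

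**Figure D5:**
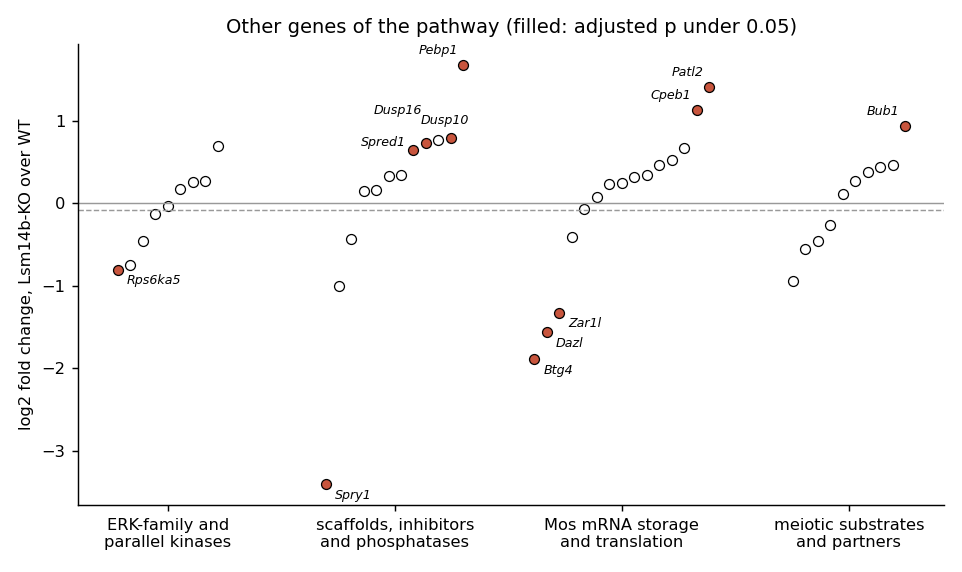
Log2 fold change (KO over WT, FPKM + 1) of the 46 tested genes in 4 lists around the cascade, with 1 point per gene, filled where the limma adjusted p was below 0.05 and named for those, and a dashed line at the median of all tested genes. The calls were 7 higher and 5 lower, with Spry1 at -3.41 and Btg4 at -1.89 the lowest and Pebp1 at 1.68 the highest.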

How the data were processed

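RNA-seq of 6 FGO libraries (3 WT, 3 Lsm14b-KO, grouped by title) was used as the deposited FPKM per gene. Per the labels and the study's methods, the authors aligned reads to mm10 with TopHat2 (2.0.13) and computed FPKM with Cufflinks (2.2.1). The gene annotation and strand setting are not given in the sources used here. The labels name 2 library kits without assigning them to libraries. Columns of the authors' own comparison (fold changes, p-values and q-values) were not used. Values were tested as log2(FPKM + 1) with limma 3.58.1 (R 4.3.3, eBayes with trend) on genes reaching 1 FPKM in 1 library or more, with Benjamini-Hochberg adjustment and a threshold of 0.05. The test was checked on simulated data with the same spread in both genotypes. That check does not cover the wider spread of KO libraries seen for Mos and Mapk3. FPKM holds no total count, so intervals cover the spread between libraries. For Map2k2 and Rps6ka1 whole fragments were recovered to within 0.009 of a whole number. Near-identical copies were searched with blastn 2.17.0 at thresholds of at least 95% identity over at least 200 nt. The text names the members, Lsm14b, up to 4 called genes of largest change per list, and the 3 nearest profiles of Mos and Mapk3 among tested genes with a mean of at least 5 FPKM. A planned comparison with 1 further gene is not reported here. The members and lists were chosen with earlier results of these data known. Alternatives were other pseudocounts (0.1 and 0.01 FPKM), filters, scalings, a length and GC correction (6318 genes), no trend, a replicate block and leaving out each library.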

Additional observations from a re-analysis of the deposited data

How the results depend on the processing

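Under the alternatives, 1 tested member (Mapk3) passed, against 0 in the main test, with a filter of 5 FPKM (adjusted p = 0.0459, Rps6ka3 not tested), TPM, quantile normalization, median scaling (adjusted p = 0.0428) or the length and GC correction, and 0 to 2 members passed when a library was left out. Mapk3 met the filter of 5 FPKM in KO libraries only. The count of genes passing fell from 1383 to 720 without a filter on low values, where 14325 genes were tested, and ranged from 315 to 2898 with a library left out. It was 396, 397 and 462 without WT replicates 1, 2 and 3, and 2898, 865 and 315 without KO replicates 1, 2 and 3. With a library left out, the log2 fold change ran from -0.22 to 0.70 for Mos, -0.077 to 0.66 for Rnf181, -0.26 to 0.80 for Ninj1 and -0.015 to 0.95 for Zp1, negative without KO replicate 2 and, for Ninj1, also without KO replicate 3 and positive otherwise. Rnf181, Ninj1 and Zp1 were chosen for profiles like that of Mos over these libraries, so their like behaviour adds no support. The cause of these shifts was not tested. Map2k1 passed under 0 of 17 alternatives. The ratio of Map2k1 to Map2k2 was not run under alternatives, as Map2k2 was at 0 in WT replicate 3. With a replicate block, 1 member passed (Mapk3, adjusted p = 0.0384), as with the block and the length and GC correction together (adjusted p = 0.0258), and 1244 genes passed with the block alone. Of the called list genes, the block ended the calls of Dusp10 (adjusted p = 0.0511), Dusp16 (0.0564), Spred1 (0.0788) and Cpeb1 (0.0521), and the block with the correction those of Dusp16 (0.14), Spred1 (0.116) and Zar1l (0.102). Without a filter on low values Rps6ka5, Pebp1, Spred1, Dusp10, Dusp16, Cpeb1 and Bub1 did not pass (adjusted p from 0.0555 to 0.105), without the intensity trend Rps6ka5, Spred1 and Bub1 did not (0.0505 to 0.0543), and with a pseudocount of 0.01 FPKM Rps6ka5 did not (0.0566). WT and KO libraries of the same number correlated in their deviations at r = 0.190, -0.128 and 0.018, and those of unlike number at -0.275 to 0.306. The labels do not say whether the numbers pair the samples, and these correlations cannot settle it. With 3 libraries per genotype, the differences in the members that could not be resolved were not only small ones. In the main test Mapk3 did not pass at a ratio of mean FPKM (KO over WT) of 3.77 (limma adjusted p = 0.0506). Rps6ka3 did not pass at a ratio of 0.444 (adjusted p = 0.0874). The confidence interval of the log2 fold change of Mos ran from -0.91 to 1.29. Map2k2 and Rps6ka1, with under 20 recovered fragments each, were not tested.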
